A study of Mus musculus with 27 samples.

Results

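Microglia taken 3 days after intracerebral hemorrhage (ICH) were compared between mice given an antibiotic cocktail (ABX) and specific pathogen-free mice given none (SPF). The 6 libraries of these groups, 3 a side, were chosen by their labels, out of 27 libraries in 9 groups. All mice were wild type. In both groups collagenase, an enzyme that breaks down vessel walls, was injected to cause the bleed, and microglia were sorted from brain tissue around the hematoma. The groups therefore share the hemorrhage, the day and the sort, and differ by the antibiotic cocktail. The rest of the series covers germ-free (GF) mice, ICH day 7, and sham mice injected with saline and labelled day 7. The labels give no age, sex, batch or antibiotic regimen, and do not say whether the 3 libraries of a group came from separate mice. The p-values thus measure a spread between libraries that may be technical. That spread was estimated within all 9 groups of the 27 libraries, not from the 6 compared libraries alone.

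Microglia are the resident macrophages of the brain. After a bleed they clear red cells, break down heme, store the iron in ferritin, and shift from a homeostatic program marked by P2ry12 and Tmem119 toward one rich in Apoe, Spp1 and lysosomal genes. Gut bacteria are known to shape microglia through their metabolites, among them short-chain fatty acids, whose receptors include those encoded by Ffar2 and Ffar3, and antibiotics deplete these bacteria. The comparison asks whether that depletion goes with a different microglial transcriptome early after the bleed.

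The 6 libraries held 50902521 to 79090595 counts and 14078 to 15331 detected genes. Mitochondrial transcripts made up 1.12% to 2.19% of counts. The Y-linked gene Eif2s3y was at 38.5 to 151 CPM (counts scaled to a common library size, with TMM factors) in all 6 libraries, and Xist, the transcript that silences an X chromosome in females, at 0 to 0.0994 CPM. Markers of the sorted type were high throughout, with P2ry12 at 1173 to 3037 CPM, while Ly6g, Mpo and Elane of neutrophils, Cldn5 of endothelium, Olig2 of oligodendrocytes and Pax5 of B cells had 0 counts in all 6 libraries, where 0 counts allow up to 0.05 CPM (3 counts in the library of lowest depth, counting error only). Other markers of the same cell types were present. Over the 6 libraries, neutrophil markers summed to 60.3 to 196 CPM and oligodendrocyte markers to 105 to 216 CPM. B cell markers summed to 248 to 648 CPM and endothelial markers to 0.305 to 16.8 CPM.

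No gene passed the test between ABX and SPF mice at ICH day 3. Of 17573 genes tested, 0 had an adjusted p under 0.05 (0% called, edgeR quasi-likelihood test, smallest adjusted p = 0.89). A gene is said to pass where its edgeR adjusted p was under 0.05. At an unadjusted p under 0.05 stood 404 genes with a higher level in ABX mice (2.3%) and 456 with a lower level (2.59%). Other tools made calls on the same counts, 782 genes by DESeq2 and 34 by limma voom, and these are described below. All but 3 of the DESeq2 calls and all limma voom calls had a mean under 16 CPM. A mean under 1 CPM was held by 535 of the DESeq2 and 4 of the limma voom calls. The median log2 fold change, ABX minus SPF, was 0 over all tested genes and 0.02 over the 5723 genes with a mean of at least 16 CPM.

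Libraries of the same group were no more alike than libraries of different groups. Over those 5723 genes, the Pearson correlation of log2 CPM, across genes, was 0.679 to 0.737 between ABX libraries (median 0.699), 0.696 to 0.831 between SPF libraries (median 0.735) and 0.644 to 0.806 between an ABX and an SPF library (median 0.754). The first principal component held 34.7% of the variance and set SPF replicate 2 apart from the other 5. The median coefficient of variation of a gene was 39.0% among ABX and 31.4% among SPF libraries.

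How small a difference could have gone unseen depended on the level. For the 89 genes at 1000 CPM or more, the median standard error (SE) of the log2 fold change was 0.38, and the 95% interval of 43 of them lay within 1 log2 unit of 0, and of 87 within 2 log2 units. For the 1232 genes from 100 to 1000 CPM the median SE was 0.75, with 86 intervals within 1 unit and 738 within 2. For the 4402 genes from 16 to 100 CPM the median SE was 1.43 and 0 intervals lay within 1 unit. These intervals are for single genes, with no correction for the number of genes. A 2-fold difference was thus bounded away in some of the most abundant genes. For most others a difference of that size was not detectable with 3 libraries a side and a spread estimated over all 9 groups.

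**Figure D1:**
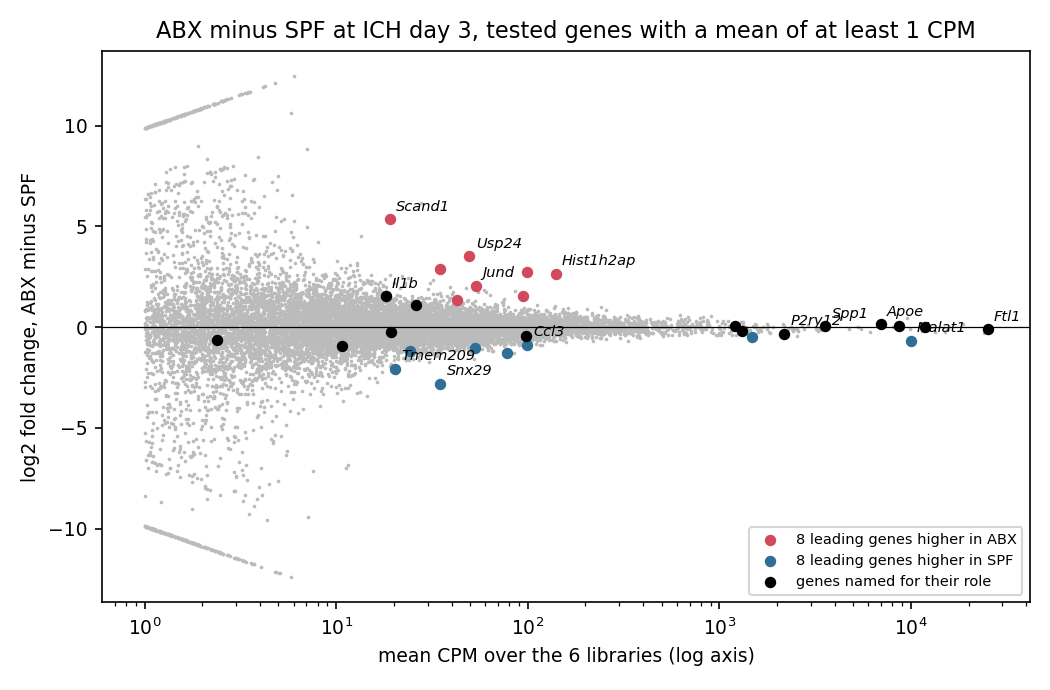
Each grey point is a tested gene with a mean of at least 1 CPM: the x axis (log scale) gives the mean CPM over the 6 libraries and the y axis the log2 fold change, ABX minus SPF. Coloured points are the genes with no overlap between groups that had the smallest unadjusted p (8 higher in ABX in red, 8 higher in SPF in blue), and black points are genes named for their role. The spread narrows as the level rises, from a median absolute value of 0.86 at 1 to 16 CPM to 0.14 at 1000 CPM and above. The diagonal lines of points beyond 10 on either side are genes with 0 counts in a whole group, whose fitted values depend on the prior count.

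Genes of the lipid and phagocytic program induced by injury had close levels in the groups. Apoe, the lipid carrier apolipoprotein E, was at 7067, 4881 and 9890 CPM in the ABX libraries and at 5377, 7267 and 7148 CPM in the SPF libraries. Spp1, which encodes the secreted matrix protein osteopontin, was at 2313, 6155 and 2417 CPM in ABX and at 2338, 4251 and 3930 CPM in SPF mice. For both genes the ABX values lay on either side of the SPF values. The log2 fold change was 0.14 ± 0.46 (SE) for Apoe, with a 95% interval of −0.81 to 1.10, and 0.05 ± 0.54 for Spp1, with an interval of −1.07 to 1.17. In sham mice Apoe was at 422 ± 56.9 CPM (SD, n = 3) with ABX and 437 ± 241 CPM in SPF mice, so the day 3 levels of both groups were far above sham while differing little from each other.

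Of the 22 genes of the disease-associated list, which holds Apoe, Spp1, the lipid-sensing receptor gene Trem2 and lysosomal proteases, 0 passed the test, 11 had a positive and 11 a negative log2 fold change, and the median was −0.02. Trem2 was at 1979, 1621 and 1901 CPM in ABX and 1985, 1401 and 1933 CPM in SPF mice, 0.05 ± 0.41 on the log2 scale. Ctsb, the protease cathepsin B, was at 16868, 15142 and 8863 CPM in ABX against 15944, 18127 and 14958 CPM in SPF mice, a log2 fold change of −0.26 ± 0.33. The lowest value was that of ABX replicate 3, and the remaining ABX values lay among those of SPF mice. The summed level of the list ran from 52349 to 72832 CPM in ABX and from 66644 to 72057 CPM in SPF libraries at day 3, against 21216 to 25890 CPM in ABX sham and 18960 to 25088 CPM in SPF sham libraries.

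Homeostatic genes likewise overlapped. P2ry12, the purinergic receptor with which resting microglia sense ATP and ADP, was at 2480, 2163 and 1173 CPM in ABX and 2428, 3037 and 1765 CPM in SPF mice (log2 fold change −0.31 ± 0.35, 95% interval −1.04 to 0.42). Cst3, the protease inhibitor cystatin C, was at 9085, 10255 and 7282 CPM in ABX and 9673, 8158 and 7522 CPM in SPF mice, and its interval, −0.46 to 0.60, was among the narrowest. Tmem119, a membrane protein used to tell microglia from other macrophages, varied more, from 438 to 2358 CPM in ABX and from 951 to 1339 CPM in SPF mice. Of the 20 homeostatic genes, 0 passed, 9 were positive and 11 negative, all 20 log2 fold changes were between −1 and 1, and the median was −0.03. Gpr34, a lysophospholipid receptor gene, was at 1025, 1119 and 515 CPM in ABX and 1081, 1315 and 888 CPM in SPF mice. As with P2ry12, ABX replicate 3 was the lowest library. The summed level of the list was 35130 to 53028 CPM in ABX and 41965 to 50208 CPM in SPF libraries, where sham libraries of the same conditions held 92103 to 107145 and 89011 to 101695 CPM.

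Iron handling, the task set by the bleed itself, showed the same picture. Ftl1, the ferritin light chain, was at 20832, 26935 and 25375 CPM in ABX and 28269, 22485 and 26724 CPM in SPF mice, a log2 fold change of −0.08 ± 0.37. Fth1, the ferritin heavy chain, was at 8321, 16109 and 11226 CPM in ABX and 12185, 11893 and 10955 CPM in SPF mice, 0.03 ± 0.31. Both 95% intervals, −0.85 to 0.68 and −0.62 to 0.68, exclude a 2-fold difference. Hmox1, the enzyme that opens the heme ring, was at 1422, 1004 and 1279 CPM in ABX and 1438, 1824 and 914 CPM in SPF mice. Its interval was −2.42 to 2.08. Of the 42 genes of functional lists at 1000 CPM or more, 22 had an interval within 1 log2 unit of 0 and 41 within 2, with Hmox1 the exception. Ncoa4, the receptor that carries ferritin to the lysosome, was higher in each ABX library (260, 183 and 152 CPM) than in each SPF library (112, 150 and 116 CPM), with a log2 fold change of 0.66 ± 0.52 that did not pass (edgeR adjusted p = 1). Of the 25 genes for heme, iron and antioxidant defence, 10 were positive and 15 negative, 0 passed in edgeR, and the median was −0.07.

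**Figure D2:**
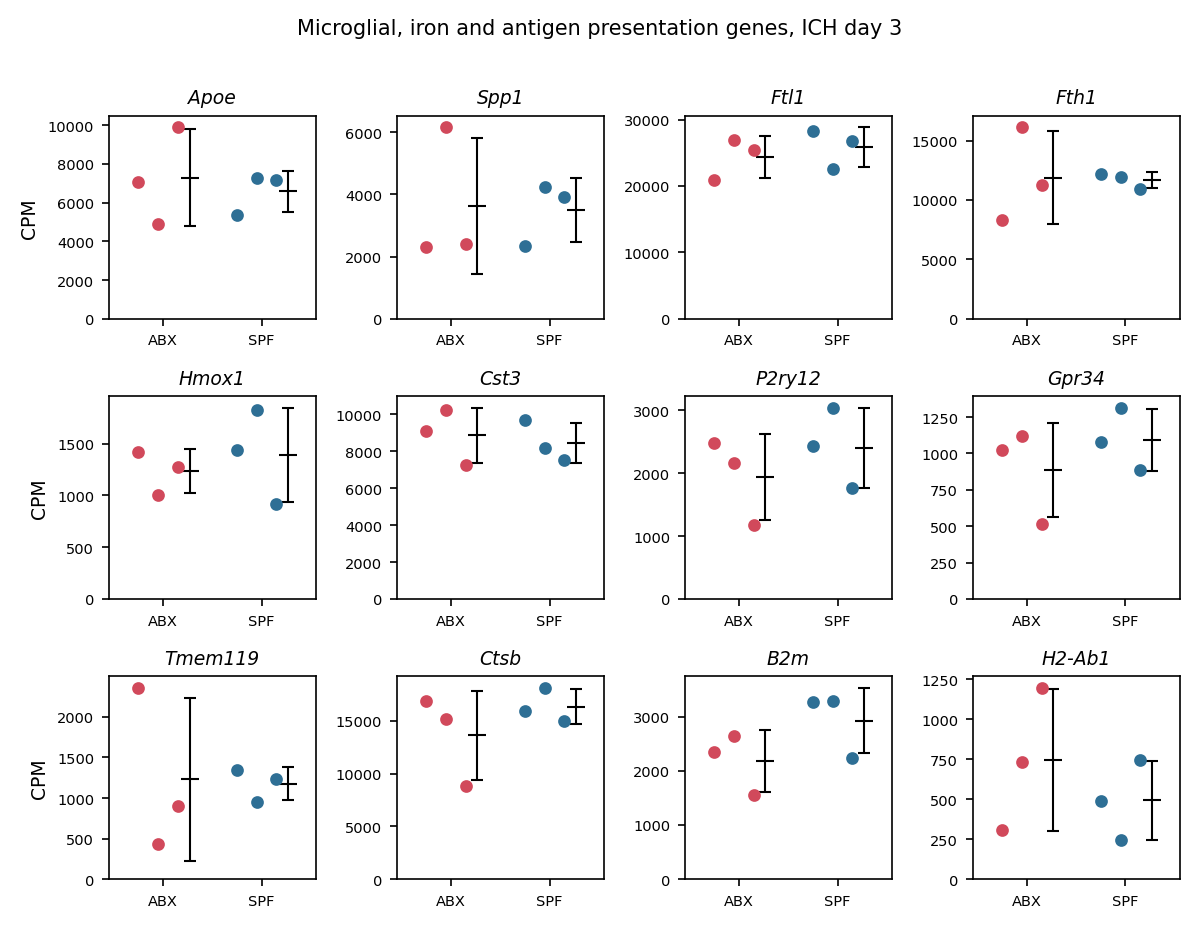
Level in CPM of 12 genes in each library at ICH day 3, with antibiotic-treated (ABX) libraries in red and SPF libraries in blue, replicates 1 to 3 from left to right. The black bar is the group mean and its error bar the SD (n = 3). In all 12 panels the values of the groups overlap.

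Antigen presentation genes spread widely inside each group. H2-Ab1, a chain of the class II molecules that show peptides to CD4 T cells, was at 309, 735 and 1198 CPM in ABX and 491, 247 and 744 CPM in SPF mice, and Cd74, the class II invariant chain, at 313, 877 and 1713 CPM and 780, 470 and 990 CPM. The libraries with high H2-Ab1, ABX replicate 3 and SPF replicate 3, were also those with high Cd74 in each group. B2m, the light chain of class I molecules, was at 2347, 2648 and 1552 CPM in ABX and 3270, 3285 and 2230 CPM in SPF mice. Its log2 fold change was −0.42 ± 0.27, with a 95% interval of −0.98 to 0.13. Of 19 genes in the list, 9 were positive, 10 negative and 0 passed, with a median of −0.06.

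Sensors of microbial products and metabolites were examined because antibiotics remove their source. Ffar2, the short-chain fatty acid receptor gene, had 674 counts in SPF replicate 1 (9.57 CPM) and 0 counts in the other 5 libraries. Ffar3 had 0 counts in all 6, so neither entered the test. Hcar2, the receptor for butyrate, niacin and ketone bodies, was at 113, 108 and 28.4 CPM in ABX and 125, 123 and 88.3 CPM in SPF mice, a log2 fold change of −0.43 ± 1.46. Acss1, a mitochondrial enzyme that activates acetate, was lower in each ABX library (22.8, 21.8 and 10.3 CPM) than in each SPF library (48.0, 24.1 and 45.1 CPM), by a log2 fold change of −1.10 ± 1.52. Of 20 genes in the metabolite list, 14 were tested, 5 were positive and 9 negative, and the median was −0.41 (−0.71 to −0.24 over the alternative settings).

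Among 24 genes for the recognition of microbes, Tlr4, the lipopolysaccharide receptor, was at 30.3, 41.3 and 40.8 CPM in ABX and 16.4, 27.9 and 21.4 CPM in SPF mice (0.77 ± 0.97). Tlr2, the lipopeptide receptor, was at 477, 660 and 283 CPM in ABX and 543, 451 and 437 CPM in SPF mice, with a log2 fold change of −0.01 ± 0.60. Of the 24, 12 were positive, 11 negative, and 1 had 0 counts in all 6 libraries. The Tlr4 values did not overlap, and those of Tlr2 did.

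The cytokine and inflammasome list summed to 1595 to 1937 CPM in ABX and 1704 to 2141 CPM in SPF libraries. Il1b and Tnf were low within it. Il1b, the gene of interleukin-1β, was at 5.76, 20.8 and 54.3 CPM in ABX and 11.2, 3.55 and 13.1 CPM in SPF mice, with a log2 fold change of 1.54 ± 1.69. Tnf was at 10.9, 19.4 and 22.6 CPM in ABX and 36.3, 9.36 and 17.7 CPM in SPF mice. The values of both genes overlapped between the groups. Ccl3, a chemokine gene of activated microglia, was at 72.8, 74.1 and 63.2 CPM in ABX and 151, 128 and 104 CPM in SPF mice. Every SPF library lay above every ABX library, and the log2 fold change of −0.87 ± 0.65 did not pass (edgeR adjusted p = 1). Its neighbour in function, Ccl4, overlapped, at 80.4, 105 and 81.3 CPM against 142, 104 and 131 CPM. Of 20 cytokine and inflammasome genes tested, 6 were positive and 13 negative, with a median of −0.12. Arg1, an enzyme of alternative activation, was at 11.3, 36.6 and 58.7 CPM in ABX and 3.14, 39.5 and 7.48 CPM in SPF mice.

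Interferon response genes had the lowest median of the 18 functional lists, and the sign of that value depended on 1 library. Of 23 genes induced by type I interferon, 22 had a lower mean in ABX mice, with a median log2 fold change of −0.63 and 0 passing. Irf7, a factor that amplifies interferon production, was at 28.1, 13.6 and 10.5 CPM in ABX and 84.4, 26.5 and 7.94 CPM in SPF mice. Ifitm3, which blocks virus entry, was at 159, 284 and 227 CPM in ABX and 559, 159 and 119 CPM in SPF mice. In both of these genes SPF replicate 1 was the highest library and SPF replicate 3 the lowest. Rtp4 and Xaf1 had the smallest unadjusted p of the members with at least 16 CPM. Rtp4 was at 63.6, 70.4 and 31.5 CPM in ABX and 149.9, 110.5 and 35.3 CPM in SPF mice. Xaf1 was at 7.25, 22.6 and 12.1 CPM in ABX and 48.9, 28.5 and 20.7 CPM in SPF mice. For Rtp4 and Xaf1, SPF replicates 1 and 2 lay above every ABX library. Their log2 fold changes stayed negative in every alternative, at most −0.40 and −0.81.

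SPF replicate 1 was the highest library for 21 of the 23 interferon genes. Their summed level was 2703 CPM there, 1282 and 776 CPM in the other SPF libraries, and 1225, 1258 and 900 CPM in the ABX libraries. Without SPF replicate 1 the median log2 fold change was 0.13, and without SPF replicate 3 it was −1.01. Sham libraries held 406 to 544 CPM in SPF and 451 to 484 CPM in ABX mice. The groups thus overlapped in the summed level, and the sign of the median was set by the inclusion of SPF replicate 1.

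**Figure D3:**
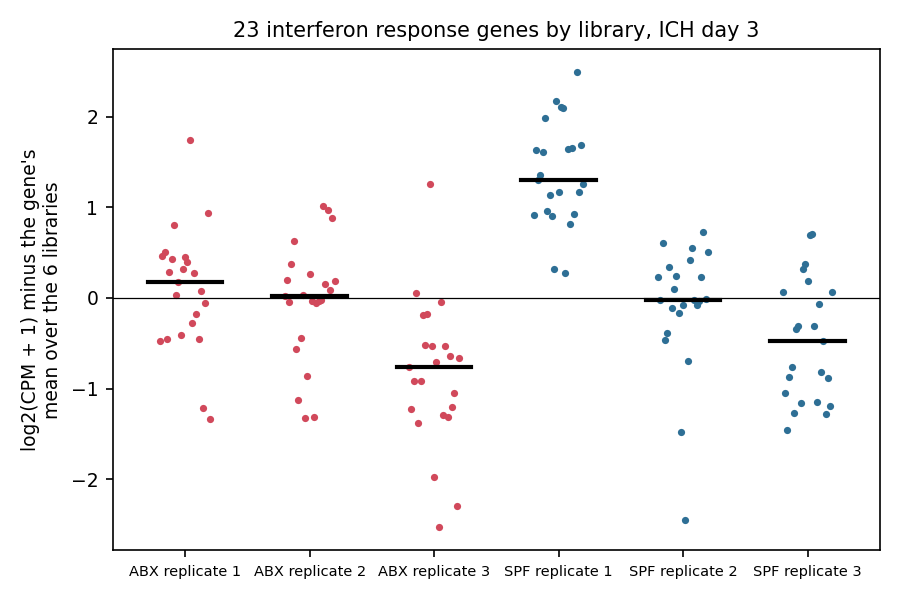
Points are the 23 interferon response genes in each of the 6 libraries (x axis), given on the y axis as log2(CPM + 1) minus the gene's own mean over the 6 libraries, and black bars are library medians. SPF replicate 1 stands above the other 5 libraries, among which ABX and SPF libraries overlap.

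The other functional lists held no edgeR call either. DESeq2 called 11 genes of the functional and marker lists, all at low levels, among them Steap3 of the iron list. Over the 18 lists, 369 genes were listed and 354 tested: 167 were positive, 184 negative, and 3 had an unadjusted p under 0.05 (Scd1, Pfkm and Steap3), each above 1 CPM in at most 2 ABX libraries and in no SPF library. ABX libraries lay wholly above SPF libraries in 11 of the 354 (3.11%) and wholly below in 9 (2.54%). Over all 17573 tested genes these shares were 3.74% and 3.77%. The shares in the lists are therefore near the background or below it. In 16 of the 18 lists the median lay between −0.12 and 0.28. The exceptions were the interferon and microbial metabolite lists.

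The 23 cell cycle genes had a median of 0.04. Mki67, the proliferation marker, was at 17.2, 51.8 and 115 CPM in ABX and 74.1, 5.26 and 45.4 CPM in SPF mice, and their summed level was 2425 to 3402 CPM in ABX and 2637 to 2976 CPM in SPF libraries. The median was 0.11 for 22 genes of oxidative phosphorylation. Of these, Cox5a, a subunit of the last respiratory complex, was higher in ABX mice (143, 239 and 159 CPM against 139, 68.5 and 72.4 CPM), at 0.95 ± 0.64. Complement and phagocytosis genes had a median of 0.02, and C1qa, a chain of the complement protein that tags debris, was at 4485, 4195 and 5081 CPM in ABX and 5701, 3699 and 5443 CPM in SPF mice. Lysosomal genes had a median of −0.09, with 14 of 19 negative.

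Of the functional lists, the highest median was that of 18 immediate early genes, 0.28 (−0.03 without ABX replicate 1), a list that also responds to tissue dissociation. Jund, a subunit of the AP-1 transcription factor, was at 98.0, 57.3 and 104 CPM in ABX and 16.9, 22.0 and 23.2 CPM in SPF mice. These values did not overlap, and the log2 fold change of 2.06 ± 1.19 did not pass (edgeR adjusted p = 0.956). In SPF mice Jund varied widely elsewhere, at 28.4, 253 and 9.24 CPM in sham and 20.4, 144 and 27.1 CPM at day 7. With ABX at day 7 Jund was at 3.46, 41.8 and 148 CPM. Fos, its partner, was at 216, 221 and 126 CPM in ABX and 61.9, 242 and 35.1 CPM in SPF mice. There SPF replicate 2 was the highest of the 6 libraries.

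**Figure D4:**
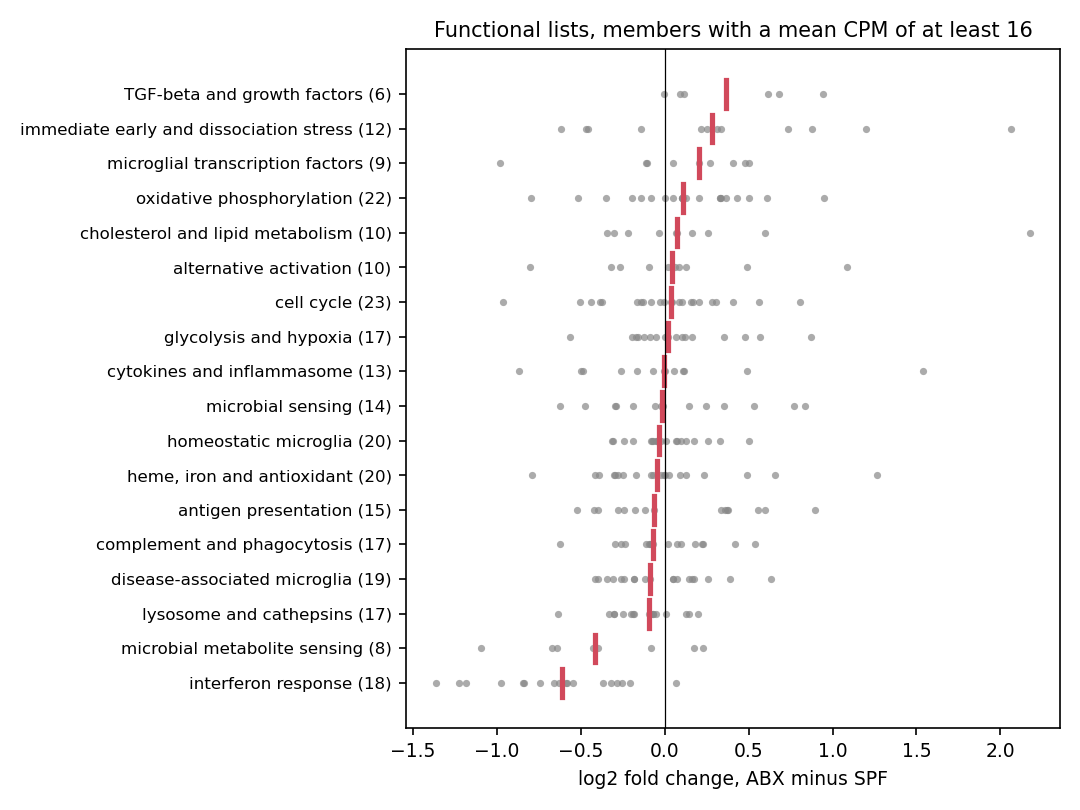
Log2 fold change, ABX minus SPF (x axis), of the members of 18 functional lists that had a mean of at least 16 CPM, with their number in brackets. Each grey point is a gene and each red bar the median of its list. Over these more abundant members the interferon list lies lowest, at a median of −0.61, and the TGF-beta list highest, at 0.37.

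Markers of other cells that a microglial sort could carry along overlapped between the groups, as summed levels, in 11 of 12 lists. The summed level was 60.3 to 196 CPM for neutrophil markers in ABX and 74.4 to 163 CPM in SPF libraries, most of it Csf3r, a growth factor receptor gene. For monocyte markers it was 67.0 to 147 CPM in ABX and 99.3 to 150 CPM in SPF libraries. Ccr2, the receptor that brings monocytes from blood, was at 0.597, 14.8 and 6.75 CPM in ABX and 16.5, 5.27 and 20.4 CPM in SPF mice. S100a8, an abundant neutrophil transcript, was at or under 6.56 CPM in all 6 libraries. Border-associated macrophage markers summed to 78.8 to 162 CPM in ABX and 72.7 to 150 CPM in SPF libraries. Ighm, the immunoglobulin heavy chain gene, was at 528, 273 and 182 CPM in ABX and 304, 306 and 222 CPM in SPF mice, although the B cell marker Ms4a1 had at most 4 counts in any library.

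T and NK cell markers were the exception. Their sum was 8.63, 8.78 and 9.09 CPM in ABX and 21.4, 14.8 and 31.0 CPM in SPF libraries, and all 9 tested genes had a lower mean in ABX mice (median log2 fold change −0.997). Lck, a T cell kinase, was at 1.25, 1.71 and 1.59 CPM in ABX and 2.19, 2.82 and 6.64 CPM in SPF mice. None of the 9 genes reached an unadjusted p under 0.05. In DESeq2 1 of the 9 had a positive log2 fold change and 8 a negative one. This was 1 of 12 marker lists, and the sums were not tested, so the separation is not read as a group difference. Cell number and RNA per cell cannot be told apart at these levels. Ttr, a choroid plexus transcript, ran from 453 to 2399 CPM in ABX and 414 to 1492 CPM in SPF mice.

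Genes with no overlap between the groups lay on both sides in similar numbers. Of the 5723 genes with a mean of at least 16 CPM, all ABX libraries lay above all SPF libraries in 246 (4.3%) and below in 209 (3.65%). With 3 libraries a side such separation also arises where groups do not differ, so it is not read as evidence of a difference. Scand1, which encodes a small protein with a SCAN domain (chr2:156311847-156312704, mm10, protein coding), had the smallest unadjusted p among those of the 246 that the naming rule allows, which leaves out genes without a symbol. It was at 21.8, 35.0 and 55.2 CPM in ABX and 1.25, 0.777 and 0.666 CPM in SPF mice. The log2 fold change was 5.37 ± 1.84, which did not pass (edgeR adjusted p = 0.89, limma voom adjusted p = 0.0617), while DESeq2 called it (adjusted p = 0.00195). Usp24, a deubiquitinase gene (chr4:106316213-106441322), was at 46.4, 58.8 and 169 CPM in ABX and 14.0, 1.37 and 8.26 CPM in SPF mice, 3.54 ± 1.31, again called by DESeq2 alone (adjusted p = 0.0278).

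The level of Scand1 varied widely between groups and libraries of the series. In sham mice it was at 0.579, 0.187 and 0.419 CPM with ABX, at 0.641, 3.13 and 1.36 CPM in SPF and at 71.6, 98.8 and 79.3 CPM in GF mice. At day 7 it was at 7.40, 33.0 and 32.1 CPM with ABX and 1.27, 29.9 and 2.12 CPM in SPF mice. In GF mice at day 3 it was at 44.8, 8.75 and 20.5 CPM. The interaction of the day 3 difference with the sham difference was 7.48 on the log2 scale and did not pass (edgeR adjusted p = 0.812).

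The other 6 genes chosen on the ABX side were Hist1h2ao, Hist1h2ap, Rala, Basp1, Tmem160 and Jund. Rala, a small GTPase of vesicle traffic, was at 100.1, 195 and 127 CPM in ABX and 80.6, 24.7 and 39.0 CPM in SPF mice, a log2 fold change of 1.55 ± 0.65. Basp1, a membrane-bound signalling protein, was at 37.8, 38.7 and 108 CPM in ABX and 12.95, 4.30 and 7.74 CPM in SPF mice. For Tmem160, a membrane protein gene, the groups barely separated, with 38.2 CPM in the lowest ABX and 35.6 CPM in the highest SPF library. Hist1h2ap, a replication-dependent histone H2A gene, was at 113, 306 and 307 CPM in ABX and 86.3, 15.03 and 13.8 CPM in SPF mice. Hist1h2ao showed the same order of libraries. Copies of these genes are near-identical, so how reads were split between them is uncertain.

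On the SPF side, Snx29, a sorting nexin gene (chr16:11322908-11755472), was the widest separated of the 8 genes chosen. It was at 11.1, 7.16 and 8.04 CPM in ABX and 63.0, 41.2 and 79.6 CPM in SPF mice, a log2 fold change of −2.81 ± 1.94 (edgeR adjusted p = 1). The sham libraries held 43.4, 31.5 and 32.5 CPM with ABX and 78.6, 36.2 and 7.87 CPM in SPF mice. Thus ABX libraries at day 3 lay below all 3 ABX sham libraries, and the SPF values of day 3 and sham overlapped. The interaction of the day 3 difference with the sham difference was −2.61 on the log2 scale and did not pass in edgeR. Snx29 also varied widely elsewhere, at 668, 0.126 and 3.02 CPM with ABX at day 7 and 0.886, 0.15 and 12.5 CPM in GF sham mice. SPF libraries at day 7 held 43.5, 47.6 and 19.85 CPM.

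Samhd1, an enzyme that depletes nucleotides and restricts viruses, was at 28.7, 72.8 and 36.9 CPM in ABX and 130, 122 and 80.0 CPM in SPF mice (−1.26 ± 1.03). Malat1, an abundant nuclear RNA, was at 5828, 7913 and 9307 CPM in ABX and 10619, 15984 and 10175 CPM in SPF mice, −0.67 ± 0.47. The mitochondrial gene mt-Cytb, a subunit of respiratory complex III, was at 1345, 1279 and 1031 CPM in ABX and 1349, 2268 and 1581 CPM in SPF mice. For mt-Cytb, replicate 1 of each group nearly met. Tmem209, Ssbp1 and Ovca2 had log2 fold changes of −2.06, −1.01 and −1.20. None of the 8 passed, and none reached an unadjusted p under 0.05.

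**Figure D5:**
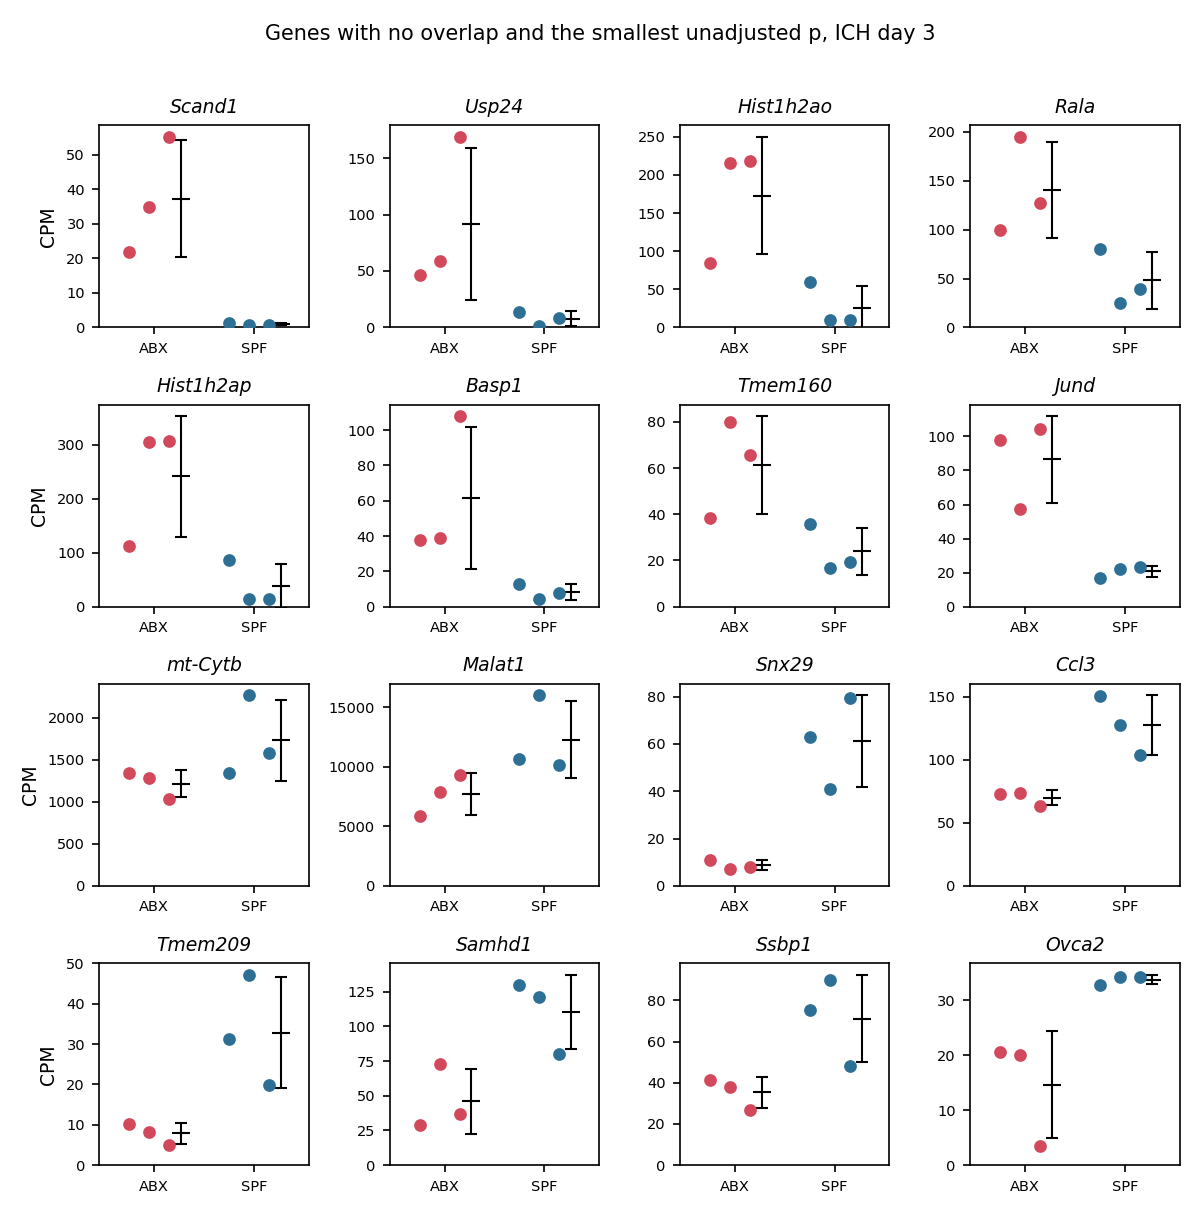
Level in CPM, in each library at ICH day 3, of the 8 genes higher in ABX (upper rows) and the 8 higher in SPF mice (lower rows) that had no overlap between groups and the smallest unadjusted p. ABX libraries are red and SPF libraries blue, replicates 1 to 3 from left to right, and black bars give the mean ± SD (n = 3), drawn no lower than 0. The gap between groups is wide for Scand1, Jund and Snx29 and narrow for Tmem160 and mt-Cytb.

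GC content moved with some of these values. The median GC content of the longest transcript was 64.2% for the 8 genes higher in ABX, 46.6% for the 8 higher in SPF mice and 48.7% for the tested genes with at least 16 CPM. Over the 1318 of 1321 genes with at least 100 CPM that had a GC value, the Spearman correlation of the log2 fold change with GC content was 0.247, and over 5705 genes with at least 16 CPM it was 0.103 (across genes, which are not independent replicates and share the 6 libraries). Over all 246 and 209 genes with no overlap, median GC content was 48.8% and 48.2%. Libraries also differed inside each group. Each gene of at least 100 CPM was centred on its mean log2 level over the 27 libraries. The median of the genes highest in GC content minus that of the lowest was 1.34, 0.635 and 1.14 in the ABX libraries. In the SPF libraries it was 1.12, 0.328 and 1.095, so SPF replicate 2 was the lowest. The part of GC content in the single-gene differences was not tested.

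The day 3 difference was next set against the difference between ABX and SPF mice without a bleed. No gene passed the interaction with sham (0 of 17573 by edgeR, 980 at an unadjusted p under 0.05, 702 called by DESeq2 and 23 by limma voom). In sham mice themselves 0 genes passed (edgeR, 712 at an unadjusted p under 0.05). Of the 246 genes with ABX above at day 3, 103 had a positive and 143 a negative ABX minus SPF value in sham, and of the 209 with SPF above, 113 were positive and 96 negative, where 48.9% of all genes with at least 16 CPM were positive. These comparisons share no library. Shams are labelled day 7, so the day differs too.

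The interaction with day 7 also held 0 calls in the edgeR fit of all libraries (2350 at an unadjusted p under 0.05, 2215 called by DESeq2 and 42 by limma voom). At day 7 itself edgeR called 13 genes higher and 2 lower in ABX mice. Without the libraries that had under 12000 detected genes, among them ABX replicates 1 and 2 at day 7, the interaction held 673 calls, 487 higher and 186 lower, with a lone ABX library at day 7 that is assumed to vary like the other groups. The all-gene median of this interaction was 0.72, and 1.01 with the size factors of DESeq2, so single genes are not read from it. At day 3, GF minus SPF held 0 calls (edgeR, 608 at an unadjusted p under 0.05), a contrast that shares the SPF libraries with the one described here.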

How the data were processed

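RNA of sorted mouse microglia was prepared with a low-input full-length cDNA kit (SMART-Seq v4) and sequenced in pairs, per the labels' protocols. Per the submitters' processing notes, the mm10 build was used, with HISAT2 2.0.4, cutadapt 1.9, edgeR and StringTie 1.3.4d among the tools. The annotation, strand setting and mate counting are not given in the sources used here. The authors deposited whole-number counts per gene for 27 libraries. GENCODE M21 (same build) gave symbols to 52073 of 56691 identifiers, and the others hold 1.27% of counts.

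One edgeR 4.0.16 quasi-likelihood fit (R 4.3.3, robust, TMM) of 9 group means covered the 17573 genes kept by filterByExpr, with 18 residual degrees of freedom and Benjamini-Hochberg adjustment at 0.05. The TMM factors of the 27 libraries ran from 0.476 to 1.31, and the common biological coefficient of variation was 1.54. CPM, log2 fold changes, SEs and 95% intervals were computed from that fit, and the SE comes from the F statistic.

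The groups, gene lists (18 functional, 12 marker) and rules were chosen with earlier results of these data known. Named genes are up to 8 per direction with at least 16 CPM, no overlap between groups and the smallest unadjusted p (predicted genes and pseudogenes left out), up to 2 members per list by smallest p, and a set named for their role. Other members of the lists are given as examples, chosen after their values were seen. Groups use the same replicate numbers, and no label says that a number marks a pair. Deviations of same-numbered ABX and SPF libraries correlated weakly, which cannot exclude a pairing. Alternatives were DESeq2 1.42.0, limma voom (limma 3.58.1), a replicate block, DESeq2 size factors, all genes with counts, the 6 libraries alone, libraries of at least 12000 detected genes, each library left out, and, added after seeing the data, genes of at least 100 CPM.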

Additional observations from a re-analysis of the deposited data

How the results depend on the processing

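The count of 0 genes between ABX and SPF mice at day 3 held with DESeq2 size factors, without the filter on low counts, in a fit of the 6 libraries alone (0 of 12790), over genes of at least 100 CPM (0 of 1321, an alternative chosen after seeing the data), without libraries under 12000 detected genes, and with each of the 6 libraries left out (0 to 0 called, 582 to 633 at an unadjusted p under 0.05). With a replicate block it was 0 too (571 at an unadjusted p under 0.05), and the block changed no other call. No label says that the numbers pair the libraries, and deviations of same-numbered libraries correlated at 0.040, 0.188 and 0.095. Differently numbered libraries were not compared in this way, so these values cannot exclude a pairing. DESeq2 called 782 genes and limma voom 34. For the interaction with sham, DESeq2 called 702, limma voom 23, and leaving out 1 library gave 0 to 0. For the interaction with day 7, DESeq2 called 2215, limma voom 42, the fit without libraries under 12000 detected genes 673, and leaving out 1 library 0 to 5, where the 5 came without ABX ICH day 7 replicate 3. The cause of these differences was not tested.

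Of 1014 recomputed fold changes of 78 named genes, 1004 moved by less than 1 SE without a call, 8 moved by more, and 2 (Scand1 and Usp24 in DESeq2) passed. The sign held throughout in 58 genes and turned in at least 1 alternative in 20, none of them called. Of 30 list medians, 23 turned sign, or moved to or from 0, in at least 1 alternative, so medians near 0 have no stable direction. Precision depended on the level: the median SE of a log2 fold change was 2.96 under 1 CPM and 0.38 at 1000 CPM or more.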

Other observations

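Of the 17573 tested genes, 76 had 0 counts in all 3 ABX libraries and some in all 3 SPF libraries. In 63 genes the reverse held. Only 1 of the 76, Dscc1, and 0 of the 63 reached 5 CPM in every library of the group with counts. Dscc1, a factor that loads the replication clamp, had 0 counts in the ABX libraries and 9.11, 10.7 and 10.5 CPM in the SPF libraries. With 3 counts per library in place of 0, Dscc1 was at least 253-fold lower in these ABX libraries. It had 0 to 8 counts in the ABX and SPF sham libraries. It was at 2.11, 3.58 and 2.60 CPM in GF mice at day 3. It had 0 counts in all 3 SPF libraries at day 7, while ABX replicate 2 at day 7 held 69.5 CPM. Mmab, an enzyme of cobalamin metabolism, was at 3.90, 27.2 and 3.80 CPM in SPF libraries and at 0 in ABX libraries (at least 291-fold lower). Mpzl1, a membrane adhesion protein gene, was at 7.29, 3.18 and 4.79 CPM in ABX libraries and at 0 in SPF libraries (at least 110-fold higher). None passed in edgeR (adjusted p = 0.89 for each). DESeq2 and limma voom both called Mmab (adjusted p = 1.7e-05 by DESeq2 and 0.0033 by limma voom). Both also called Mpzl1 (adjusted p = 0.0113 by DESeq2 and 0.0319 by limma voom). Dscc1 was not among the 27 genes that both tools called. The fold bounds cover counting error only, not the spread between libraries. Counts also fell to 0 inside single groups: Mmab had 45, 0 and 641 counts in SPF sham libraries. Mpzl1 had 349, 0 and 390 counts in GF libraries at day 3.

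Genes called by DESeq2 were mostly without counts in a whole group. Of the 782 DESeq2 calls, 731 had 0 counts in all libraries of a group, 535 had a mean under 1 CPM, 3 had at least 16 CPM (Scand1, Usp24 and 1 gene without a symbol), and 117 showed no overlap. All 34 limma voom calls had a mean under 16 CPM, a 0 in at least 1 library and no overlap, and 27 of them were also DESeq2 calls.

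Histone genes of the Hist1 cluster are a family chosen after its values were seen, with no test of the group. Of 15 with at least 16 CPM, 13 had a positive log2 fold change, with a median of 0.34 and 0 passing (edgeR), and most fold changes were smaller than their SE. Hist1h2ap, Hist1h2ao, Hist1h2aj and Hist1h3f lay wholly above SPF libraries, as did 4.3% of all genes of at least 16 CPM. Hist1h2aj was at 15.9, 41.1 and 55.4 CPM in ABX and 15.03, 2.58 and 1.58 CPM in SPF mice, and SPF replicate 1 was the highest SPF library in each of the 3 H2A genes. The transcripts of these H2A genes have a GC content of 64.5%, 64.2% and 70.5%, and its part in the values was not tested.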
